A study of Mus musculus with 2 samples.

Results

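The cells described here are CD4 T cells of the pancreatic islet that carry transcripts of Tnfsf8, Nrn1 or Tnfsf11. They were chosen from the counts themselves, as barcodes with at least 500 genes and at most 10% mitochondrial molecules that met 8 conditions. A cell needed at least 1 UMI (unique molecular identifier, 1 counted molecule) of Cd4 and of the CD3 genes together, no UMI of Cd8a, Cd8b1 or Foxp3, and at most 1 UMI in sum of the B-cell and macrophage genes Cd79a, C1qa and Lyz2. It also needed at most 1 UMI of the cell-cycle genes Mki67 and Top2a, no UMI of Il21 or Cxcr5, and at least 2 UMIs in sum of Tnfsf8, Nrn1 and Tnfsf11. The rule found 579 cells among 22466 barcodes of sufficient quality, 268 in 1 library and 311 in the other, and they are called the rule cells below. The libraries came from islets of female mice aged 12 weeks, 1 from NOD mice (labelled WT NOD), a strain that develops autoimmune diabetes, and 1 from mice labelled NOD.Cxcl16-/-, the same strain with a deletion of the chemokine gene Cxcl16. The pancreas was digested with collagenase, the islets were picked by hand and dispersed without further enzymes, and live CD45+CD31- cells (leukocytes, without endothelium) were sorted and sequenced on the 10x droplet platform with a 3' kit. The labels do not give the number of mice behind each library.

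The TNF superfamily is a group of ligands that T cells and other leukocytes place on their surface to signal through receptors on neighbouring cells. Tnfsf8 encodes CD30 ligand, which binds CD30 (Tnfrsf8) on activated lymphocytes, and Tnfsf11 encodes RANKL, which binds RANK (Tnfrsf11a) on dendritic cells and on osteoclast precursors and is captured by the soluble decoy osteoprotegerin (Tnfrsf11b). Nrn1 encodes neuritin, a small protein tethered to the cell surface that was first described in neurons and is also made by anergic and regulatory CD4 T cells. Anergy is a state in which a T cell that has met its antigen without sufficient costimulation answers poorly to a further encounter.

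The 3 genes lie on different chromosomes of the mouse build GRCm38. Tnfsf8 (ENSMUSG00000028362) is at chr4:63831308-63861347, Tnfsf11 (ENSMUSG00000022015) at chr14:78277445-78308043 and Nrn1 (ENSMUSG00000039114) at chr13:36725361-36735131, all on the minus strand. Pdzrn3 (ENSMUSG00000035357), which encodes a RING and PDZ domain protein, is at chr6:101149609-101377897 on the minus strand, and Plagl1 (ENSMUSG00000019817), which encodes an imprinted zinc-finger factor, is at chr10:13060504-13131694 on the plus strand. The stretches directly upstream of the annotated starts of Tnfsf8, Tnfsf11 and Pdzrn3 are shown because Pdzrn3, which the rule did not use, was high in the populations where the pair of ligand genes was. Nrn1 was high in the same populations but had no entry among the promoter sequences used. The stretches shown are RefSeq promoter sequences of GRCm38.p6, on the gene's strand, at chr4:63861348-63861534, chr14:78308044-78308293 and chr6:101377898-101378147. Capitals mark GGAAA, the core bound by NFAT, the factor that calcineurin activates below the T-cell receptor, or TTTCC, the same letters read on the opposite strand.
Tnfsf8: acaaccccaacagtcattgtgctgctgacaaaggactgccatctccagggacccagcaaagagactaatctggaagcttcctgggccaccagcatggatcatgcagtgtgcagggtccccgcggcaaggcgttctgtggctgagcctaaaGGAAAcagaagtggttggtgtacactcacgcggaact
Tnfsf11: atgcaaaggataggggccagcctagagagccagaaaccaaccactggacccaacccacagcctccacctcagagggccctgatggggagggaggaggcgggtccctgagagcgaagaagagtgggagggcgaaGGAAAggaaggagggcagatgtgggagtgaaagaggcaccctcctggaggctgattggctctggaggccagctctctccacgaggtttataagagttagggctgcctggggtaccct
Pdzrn3: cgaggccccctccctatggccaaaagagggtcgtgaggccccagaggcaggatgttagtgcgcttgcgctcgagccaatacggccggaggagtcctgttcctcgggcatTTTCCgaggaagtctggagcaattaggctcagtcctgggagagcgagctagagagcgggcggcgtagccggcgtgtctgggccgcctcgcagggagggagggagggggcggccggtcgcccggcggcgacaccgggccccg
Each sequence held 1 match, and 55.6% of all 32851 promoter windows of 250 bases held at least 1 on either strand, so a match is common. The AP-1 letters TGANTCA (6.75% of windows) and the NR4A letters AAAGGTCA (1.34%) had no match on either strand in the 3 sequences, and no match overlapped another.

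Cxcl16 was examined first because it checks the labels. Its level was 103 CPM (the gene's UMIs scaled to the total UMIs of the cells described) with WT NOD cells and 102 CPM in the other library, and 838 and 533 CPM in barcodes without CD3 that held at least 5 UMIs of the macrophage genes C1qa, C1qb and C1qc, so a transcript counted as Cxcl16 was present where the label says it was deleted. The second library is therefore called by its label, and no direction below is attributed to the genotype. The libraries held 13859 and 10554 barcodes with 93553185 and 98681133 UMIs in all. Rule cells had a median of 4540.5 and 4904 UMIs, against 3769.5 and 4118.5 in the other CD4 T cells of the same gate, which had no UMI of the 3 genes, so the cells compared also differed in depth. The libraries shared 45 barcodes, 2 of them rule cells of the WT NOD library and 1 a rule cell of the other. Every interval given is at the 95% level and covers counting error only.

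Rule cells made up 27.5% (interval 24.7 to 30.4, exact Clopper-Pearson; 268 of 975) of the gated CD4 T cells in the WT NOD library and 32.8% (29.8 to 35.9; 311 of 949) in the library labelled NOD.Cxcl16-/-. With each cell thinned to 2000 UMIs and the whole rule applied again, the shares were 19.5% (16.6 to 22.6) and 22.6% (19.5 to 25.8), so the intervals overlapped at the depth as sequenced and at equal depth. Among B cells, gated without a UMI of CD3, 0.134% and 0.220% reached 2 UMIs at median depths of 4636.5 and 4707.5 UMIs. The shares in gated CD4 T cells were above those in B cells. Asking for no CD3 UMI can leave out B-cell barcodes with free T-cell RNA, and the part of free RNA was not tested. At the threshold, 69 and 64 rule cells held exactly 2 UMIs of the 3 genes, and 149 and 148 gated cells fell just outside with 1.

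The cells were mostly carriers of Tnfsf8. It was detected in 82.5% and 85.2% of rule cells, Tnfsf11 in 61.9% and 63.7% and Nrn1 in 28.4% and 36.3%, in the order WT NOD and then the library labelled NOD.Cxcl16-/-, which is kept throughout. The pair of ligand genes without Nrn1 was the most frequent combination, in 89 and 96 cells, followed by Tnfsf8 alone in 74 and 73. All 3 genes were found in 38 cells (14.2%) and 62 cells (19.9%), and these were deeper, at medians of 6088.5 and 6457.5 UMIs. Nrn1 without either ligand was rare, in 8 and 6 cells. These few Nrn1-only cells carried Ccl5, which encodes a chemokine of memory and cytotoxic T cells, at 3855 and 2191 CPM, and Nkg7, a gene of cytotoxic granules, at 607 and 1095 CPM. Ccl5 was at 409 and 229 CPM in cells with Tnfsf8 alone and at 2072 and 2281 CPM in the other CD4 T cells of the gate. The Nrn1-only cells had no UMI of Pdzrn3 in either library, which allows up to 52.1 and 82.5 CPM. Cells that held Nrn1 with Tnfsf8 had Pdzrn3 at 95.4 and 121 CPM. Only 17.9% and 27.3% of all rule cells held a UMI of Pdzrn3, so its absence from 8 and 6 cells says little.

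Outside the rule, the transcripts were also high in another CD4 population. Cells that passed the same gate but held Il21 or Cxcr5, which mark helper cells that support B cells, had Tnfsf8 at 669 and 665 CPM, against 729 and 826 CPM in rule cells. CD4 T cells with a UMI of Foxp3, the factor that defines regulatory T cells, had 80.9 and 159 CPM. CD8 T cells had 36.6 and 55.9 CPM and B cells 0.593 and 1.63 CPM. Tnfsf11 followed the same order, at 293 and 330 CPM in rule cells, 237 and 307 CPM in Il21 or Cxcr5 cells and 39.8 and 58.0 CPM in Foxp3 cells. A further source of Tnfsf11 was the small set of cells without CD3 that held Gata3 with Il1rl1 or Calca, genes of group 2 innate lymphoid cells, at 113 and 227 CPM from 16 and 35 cells. Nrn1 was at 216 and 275 CPM in rule cells, at 119 and 193 CPM in Il21 or Cxcr5 cells, at 68.5 and 51.0 CPM in Foxp3 cells and at 45.4 and 73.5 CPM in CD8 T cells. Since the rule asked for these 3 genes, their levels in rule cells are a description and no test is given.

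**Figure D1:**
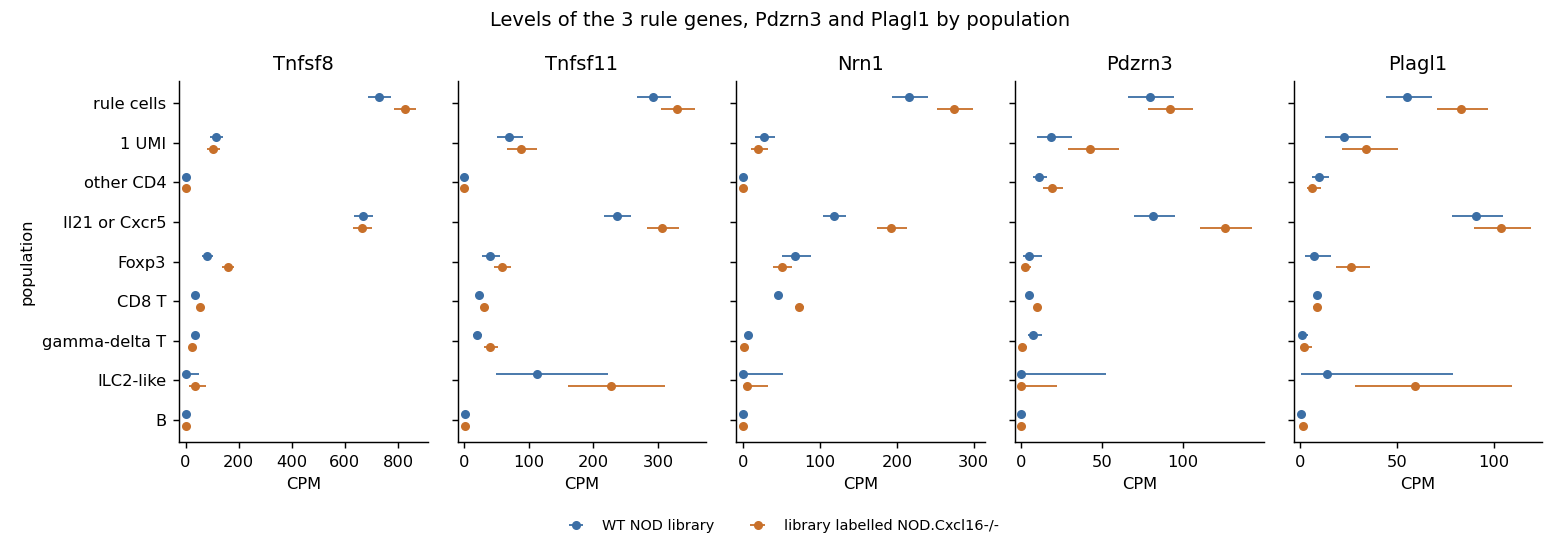
CPM of each gene (x axis, linear, one scale per panel) in each gated population (rows), with 95% Poisson intervals, for the WT NOD library (blue) and the library labelled NOD.Cxcl16-/- (orange). In each library, rule cells and Il21 or Cxcr5 cells have the highest levels of all 5 genes; Tnfsf8 is at 729 and 826 CPM in the first and 669 and 665 CPM in the second, and other CD4 T cells are at 0 for the 3 rule genes by definition.

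Transcripts of the receptors of these ligands were higher in some other gated populations than in rule cells. Tnfrsf8 (CD30) had 6 UMIs in the rule cells of each library, 3.78 and 3.16 CPM. It was at 36.1 and 21.2 CPM in Foxp3 cells and at 9.45 and 11.4 CPM in CD8 T cells. Tnfrsf11a (RANK) had 1 UMI in the rule cells of each library and was at 59.4 and 44.9 CPM in cells without CD3 that held at least 3 UMIs of Fscn1 and Ccl22, genes of mature dendritic cells. Macrophage-gated cells held Tnfrsf11a at 16.03 and 21.8 CPM. The cells gated on genes of group 2 innate lymphoid cells held it at 42.5 and 17.9 CPM, from 3 UMIs in each library. Tnfrsf11b, the RANKL decoy, reached 5 and 25 UMIs in the mature dendritic cell gate, from 3 and 6 cells, and was at 1 UMI or 0 in rule cells.

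Within the gate, the amount of the 3 transcripts went with the levels of genes that the rule did not use. Of these, Pdzrn3 and Plagl1 are markers of the working label given to the cells, chosen with earlier results of these data known. From cells with 0 UMIs of the 3 genes to cells with 10 or more, Pdzrn3 went from 10.9 to 123 CPM with WT NOD cells and from 19.1 to 139 CPM in the other. Plagl1 went from 10.0 to 108 CPM and from 6.36 to 119 CPM, and Bhlhe40, a repressor induced by T-cell receptor signals, from 267 to 775 CPM and from 270 to 783 CPM. Genes of tissue exit went the other way. S1pr1, the receptor for the lipid that draws T cells out of tissue, was at 363 and 429 CPM in cells with no UMI and at 54.0 and 96.8 CPM in cells with 10 or more. Klf2, the factor that drives S1pr1, was at 887 and 788 CPM and then at 156 and 128 CPM. Cells just inside the threshold, with 2 or 3 UMIs, were closer to cells without the transcripts, with S1pr1 at 419 and 356 CPM and Klf2 at 670 and 495 CPM. Depth differed along the same bins, with medians of 3769.5 and 4118.5 UMIs at 0 and of 6088.5 and 6212.5 UMIs at 10 or more. These are levels of pooled cells and carry no test.

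**Figure D2:**
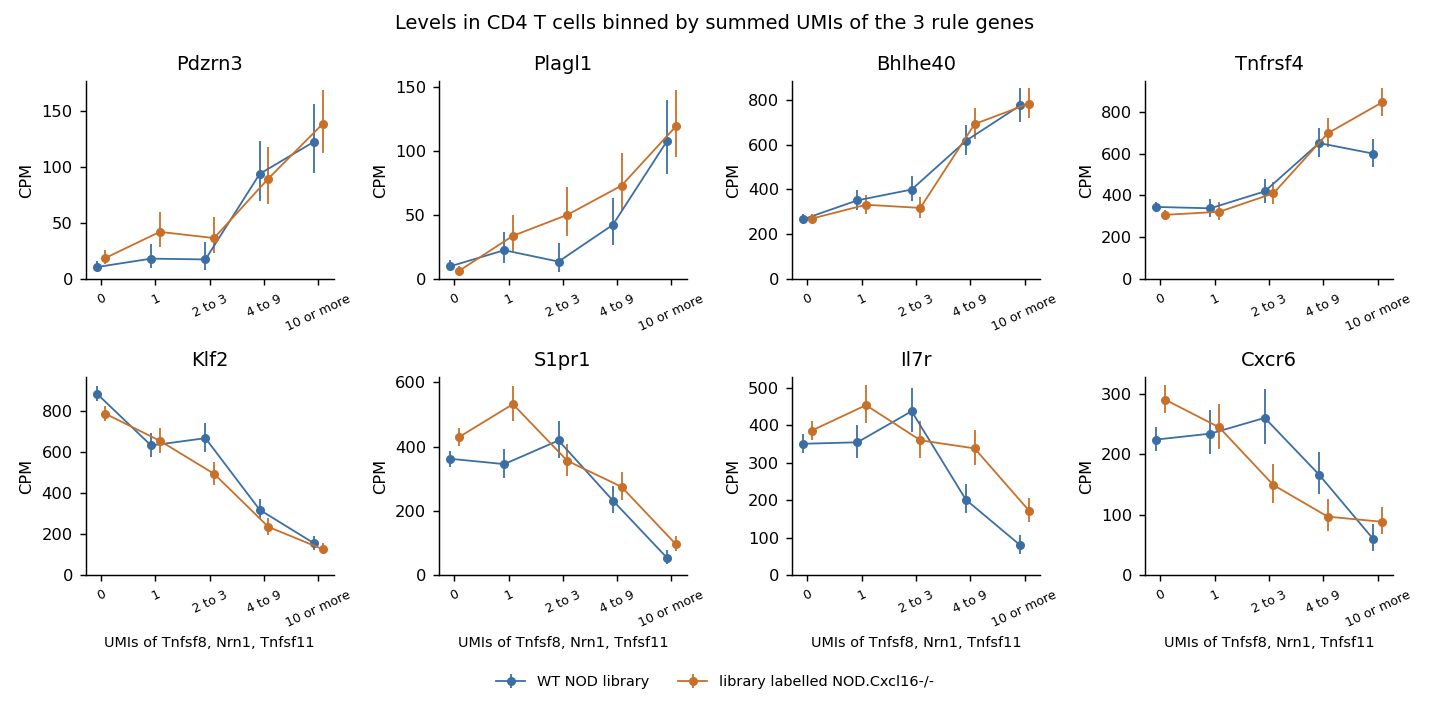
CPM (y axis, linear, from 0) of 8 genes in gated CD4 T cells binned by the summed UMIs of Tnfsf8, Nrn1 and Tnfsf11 (x axis), with 95% Poisson intervals, for the WT NOD library (blue) and the library labelled NOD.Cxcl16-/- (orange). Pdzrn3, Plagl1, Bhlhe40 and Tnfrsf4 are highest in the upper bins, and Klf2, S1pr1, Il7r and Cxcr6 are lowest there.

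When the 1924 gated cells were clustered without the genes of the rule, the rule cells were not spread evenly. Of the 7 clusters, the one led by Nrgn, Pdzrn3, Ppp2r3a, Creb3l2, Fbn2, Gpm6b, Plagl1, Cd200, Dusp14 and Stx11 held 290 of the 579 rule cells (50.1%), 41.8% of the WT NOD rule cells and 57.2% of the others. Rule cells made up 73.7% (65.9 to 80.5) and 78.4% (72.5 to 83.6) of that cluster. A cluster led by Sidt1, Abcb1a, Il7r and S1pr1 held another 129 rule cells, 37.9% and 28.4% of its cells. In the cluster led by the naive-cell genes Igfbp4, Lef1 and Dapl1, rule cells were 1.52% and 5.39%. The rule cells were therefore about evenly divided between a cluster with Pdzrn3 and Plagl1 and several other kinds of CD4 T cell. A cluster led by the antigen-presentation genes Cd74 and H2-Aa held 15 and 11 rule cells. Its 100 cells in the WT NOD library had a median of 3407.5 UMIs, and its 35 cells in the library labelled NOD.Cxcl16-/- a median of 13664. Pdzrn3 and Plagl1 are markers of the cells' label. The clustering left out the genes of the rule but did not bar Pdzrn3 or Plagl1, and it used the same cells. These shares are therefore a description with no test.

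**Figure D3:**
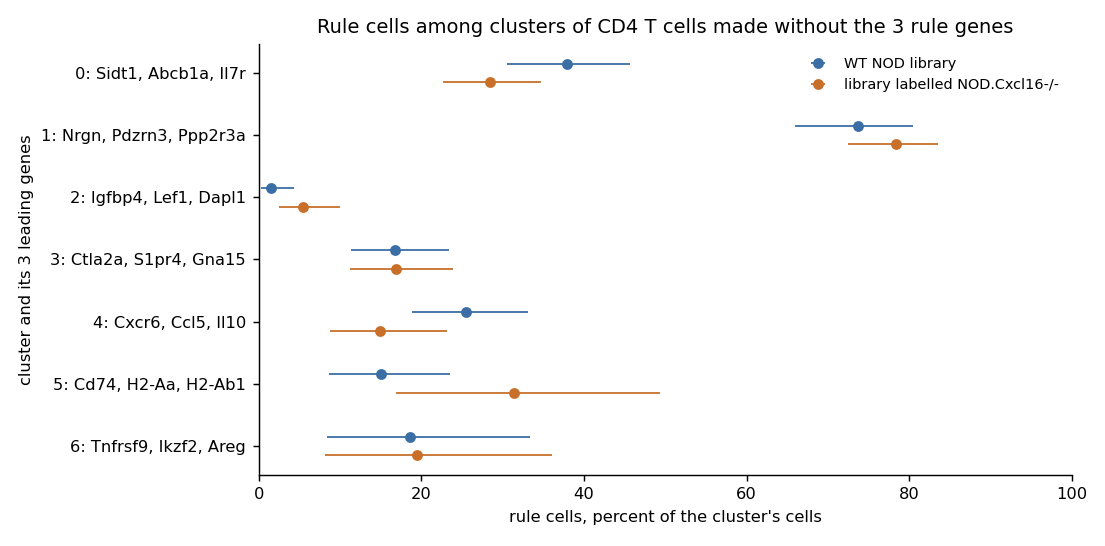
Percent of each cluster's cells that are rule cells (x axis, 0 to 100) for 7 clusters of gated CD4 T cells (rows, with 3 leading genes), with 95% Clopper-Pearson intervals, for the WT NOD library (blue) and the library labelled NOD.Cxcl16-/- (orange). The cluster led by Nrgn and Pdzrn3 is at 73.7% and 78.4%, and the cluster led by Igfbp4 and Lef1 at 1.52% and 5.39%.

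Compared with the other CD4 T cells of the gate, rule cells had higher levels of Plagl1, Pdzrn3, Penk and Cd200 and lower levels of most genes of naive and recirculating cells. Plagl1 was at 55.5 and 83.2 CPM in rule cells and at 10.0 and 6.36 CPM in other CD4 T cells. Pdzrn3 was at 79.4 and 91.6 against 10.9 and 19.1 CPM, and Penk, the precursor of enkephalin peptides, at 199 and 237 against 38.4 and 39.5 CPM. Cd200, a surface protein that restrains myeloid cells through its receptor, was at 443 and 343 against 124 and 99.9 CPM. In the opposite direction, Igfbp4 was at 8.83 and 8.95 CPM in rule cells and at 161 and 132 CPM in other CD4 T cells. In each of these 5 genes both libraries gave the same order, which the choice of genes to name required. The values of the populations did not overlap.

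The test took UMIs summed per library and population, 4 sums in all, in edgeR's quasi-likelihood test with the library as a block and Benjamini-Hochberg adjustment over 9402 genes. It called 1465 genes (15.6% of those tested), 731 higher in rule cells (7.77%) and 734 lower (7.81%), of which 1451 had the same direction in both libraries. With 1 residual degree of freedom the spread was estimated close to counting noise and rested on the spread shared by all genes. DESeq2 called 214 genes (2.28%), all among the 1465 and in the same direction. The 16 gene lists other than cell markers had between 25% and 94.1% of their tested genes called in this comparison, so a share above that of all genes was common to them. The log2 fold changes (rule cells minus other CD4 T cells) were 3.01 for Plagl1, 2.47 for Pdzrn3, 2.44 for Penk, 1.76 for Cd200 and -4.06 for Igfbp4, and these 5 passed both tests. Plagl1 and Pdzrn3 are markers of the cells' label, chosen with earlier results of these data known, so their calls are no independent support.

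Among the 12 genes with the largest increase, others were Nrgn, a calmodulin-binding protein (113 and 146 against 5.23 and 24.1 CPM, log2 fold change 3.13), and Spp1, the secreted protein osteopontin (47.9 and 185 against 5.23 and 26.3 CPM, 2.85). Dusp14, a phosphatase of T-cell receptor signalling, had a log2 fold change of 2.44, Creb3l2 of 2.04, the phosphatase subunit gene Ppp2r3a of 1.98, Ptger2, the EP2 receptor for prostaglandin E2, of 1.96, and Jazf1 of 1.72. All of these also passed DESeq2. The chemokine gene Ccl1 had a log2 fold change of 3.70 in edgeR and a DESeq2 adjusted p of 0.64, and 154 of its 163 UMIs in the rule cells of the library labelled NOD.Cxcl16-/- came from 1 barcode. Among the 12 largest decreases, next to Igfbp4, were Lef1 (-2.39), Ccl5 (-2.33), Dapl1 (-2.18), Hopx (-1.94), St8sia6 (-1.75) and Pde3b (-1.65).

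**Figure D4:**
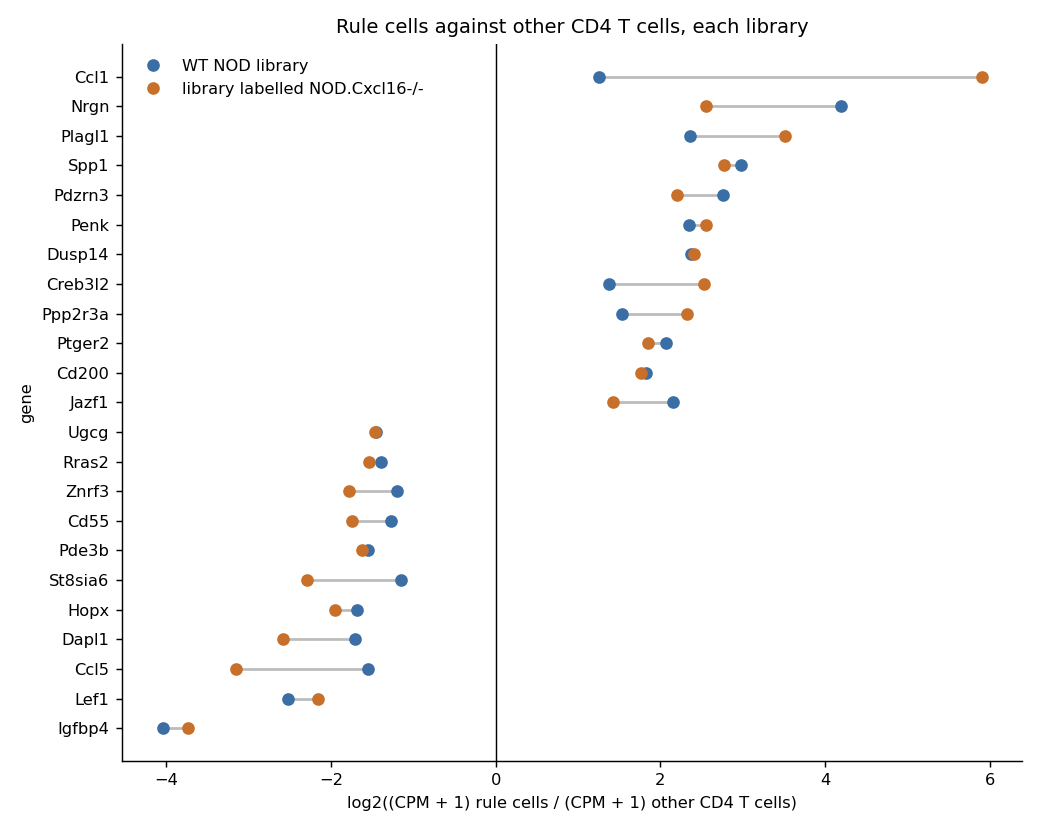
Difference between rule cells and other CD4 T cells as log2 of the CPM ratio with 1 CPM added (x axis) in each library, for the 12 genes with the largest increase and 11 of the 12 with the largest decrease; each gene is a row, with the WT NOD library in blue and the library labelled NOD.Cxcl16-/- in orange, joined by a line. The genes were chosen among calls with the same sign in both libraries, so the shared sign is no finding. Ccl1 has the widest gap, 1.26 against 5.90.

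The working label of these cells calls them anergic-like, and genes linked to T-cell anergy gave a mixed picture. Of the 17 genes tested, 5 were higher and 4 lower in rule cells, 52.9% against 15.6% of all genes, with a median log2 fold change of -0.05 against 0.0021 for all genes. The higher ones were Nt5e, the ectoenzyme CD73 (65.6 and 77.9 against 29.2 and 30.9 CPM, log2 fold change 1.21), Bhlhe40 (1.13), the diacylglycerol kinase gene Dgkz (0.80), Nfatc1 (0.68) and Izumo1r, the folate receptor FR4 (0.34). Of these, Nt5e and Bhlhe40 also passed DESeq2. The other diacylglycerol kinase gene, Dgka, was lower (166 and 151 against 235 and 216 CPM, -0.55), as were the phosphatase gene Dusp2 (-0.48), Sirt1 (-0.85) and Tob1 (-0.47). The transcription factor genes Egr2 and Egr3 had only 12 and 20 and 14 and 15 UMIs in rule cells and did not pass. The ubiquitin ligase genes usually named with anergy did not pass either. Rnf128 (GRAIL) was at 6.93 and 9.48 against 3.92 and 2.27 CPM with an edgeR adjusted p of 0.057, and Cblb was at 504 and 633 against 516 and 624 CPM. Because the list moved in both directions, the cells are described here by their genes and not as anergic.

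Inhibitory receptors were partly higher. Of 15 genes, 6 were higher and 2 lower, 53.3% against 15.6% of all genes, with a median log2 fold change of 0.18 against 0.0021. Btla, a receptor of the CD28 family, was at 83.2 and 98.5 CPM against 29.6 and 32.7 CPM (log2 fold change 1.497), and Pdcd1lg2, the ligand PD-L2, at 65.6 and 65.3 against 28.8 and 22.7 CPM (1.30). Ctla4 was at 912 and 1008 against 704 and 755 CPM (0.35) and Pdcd1, the receptor PD-1, at 86.4 and 105 against 56.2 and 78.1 CPM (0.47), the last without a DESeq2 call. Havcr2 (-0.62) and the ectoenzyme gene Entpd1 (-1.04), both marks of terminally exhausted cells, were lower in the edgeR test. Lag3 and Tigit did not pass, with log2 fold changes of 0.18 and 0.12. The costimulatory receptors OX40 (Tnfrsf4, 0.86, also in DESeq2), Slamf6 (0.70), 4-1BB (Tnfrsf9, 0.63) and Icos (0.34) were higher and Cd27 (-0.46) was lower. These were 5 calls among 13 genes, 38.5% against 15.6% of all genes.

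Responses to the antigen receptor were also mixed, with 7 of 21 genes higher and 4 lower, 52.4% against 15.6% of all genes, and a median of 0.25. Nr4a2 was at 215 and 244 against 115 and 139 CPM (log2 fold change 0.81), Rel, a subunit of NF-kappaB, at 398 and 419 against 255 and 264 CPM (0.61), and Dusp4 at 87.6 and 128 against 34.9 and 56.8 CPM (1.20). Nr4a1 and Nr4a3 did not pass (-0.13 and 0.25), and the early gene Egr1 (-0.47) and Cd69 (-0.28) were lower. Of the 19 early-response genes tested, which can also rise during tissue handling, 9 were lower and 2 higher, 57.9% against 15.6% of all genes. Their median was -0.20.

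Genes of naive and recirculating cells were lower nearly throughout. Of 17 genes, 14 were lower and 2 higher, 94.1% against 15.6% of all genes. The median log2 fold change was -0.86, and 11 of the 14 passed DESeq2. Klf2 was at 376 and 277 against 887 and 788 CPM (-1.41), S1pr1 at 232 and 234 against 363 and 429 CPM (-0.81), and Satb1, a chromatin organiser, at 154 and 174 against 407 and 417 CPM (-1.37). Il7r was also lower (-0.55). The exceptions were Ccr7, the receptor that guides T cells to lymph nodes, at 239 and 373 against 218 and 249 CPM (0.33), and the nucleolar gene Npm1 (0.15), both without a DESeq2 call. Genes of residency showed no common direction, with 7 of 16 higher, among them Bhlhe40 and the integrin gene Itgb1 (0.63), and 5 lower, among them Cxcr6 (-0.99), the receptor of CXCL16, the integrin gene Itgae (-1.80) and Rgs1 (-0.53). In all, 75% of the residency genes were called, against 15.6% of all genes.

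Of 17 Th1-linked genes, which include genes of cytotoxic cells, 9 were lower, 3 of them also in DESeq2. Another 3 were higher and 5 did not pass, with 70.6% called against 15.6% of all genes and a median of -0.29. Bhlhe40 is counted in this list and in the anergy-linked and residency lists, so the counts are not independent. Ccl5 was at 705 and 256 CPM in rule cells against 2072 and 2281 CPM, Nkg7 at 218 and 224 against 376 and 460 CPM (log2 fold change -0.96) and Gzmk at 30.9 and 24.2 against 73.2 and 65.9 CPM (-1.38). The higher ones were Stat4, which carries interleukin-12 signals (339 and 442 against 182 and 230 CPM, 0.88), Bhlhe40, and Ifng, the cytokine interferon gamma (182 and 166 against 112 and 111 CPM, 0.59), the last without a DESeq2 call. Il10 was lower (19.5 and 20.01 against 56.2 and 37.2 CPM, -1.26). Among other TNF-family ligands, Tnfsf4, the OX40 ligand, was at 9.46 and 23.2 against 0.872 and 2.73 CPM (3.10, from 2 and 6 UMIs in other CD4 T cells), and Tnfsf10 (TRAIL) at 41.0 and 56.9 against 16.1 and 17.3 CPM (1.501), while Cd40lg did not pass (0.08).

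Of 18 genes of follicular helper cells, 10 were higher and 1 lower, 61.1% against 15.6% of all genes. The rule had removed cells with Il21 or Cxcr5. Tox, a factor of chronically stimulated cells, was at 554 and 701 against 317 and 349 CPM (log2 fold change 0.87), Hif1a, the factor of the hypoxia response, at 729 and 927 against 456 and 434 CPM (0.85), and Sh2d1a, the adaptor SAP, at 322 and 340 against 186 and 198 CPM (0.74). All 3 passed DESeq2, as did Cd200. Bcl6, which defines follicular helper cells, did not pass (0.34). Maf was lower (-0.23), but lost the call without high-scoring doublets (-0.20, edgeR adjusted p = 0.12) and turned with matching on total UMIs (0.022). Of genes shared with regulatory T cells, the semaphorin receptor gene Nrp1 was higher (118 and 136 against 49.7 and 62.7 CPM, 1.13), and Ikzf2 (Helios) did not pass (223 and 242 against 224 and 219 CPM).

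Part of these differences moved with the naive cells in the comparison group. Barcodes without a UMI of Igfbp4, Lef1 or Dapl1 made up 73.5% and 75.2% of rule cells and 47.5% and 46.5% of other CD4 T cells. Among those barcodes alone, a comparison added after the data were seen, edgeR called 858 genes, 448 of them higher. Plagl1 (log2 fold change 3.12), Nrgn (3.40), Spp1 (2.64), Pdzrn3 (2.11), Penk (1.95), Btla (1.60), Cd200 (1.22), Nt5e (0.91), Stat4 (0.88), Bhlhe40 (0.85), Tox (0.57), Hif1a (0.60) and Tnfrsf4 (0.29) stayed called. Klf2 (-1.08), S1pr1 (-0.66), Ccl5 (-3.32), Cxcr6 (-1.68), Gzmk (-1.87) and Nkg7 (-1.495) also did, and Ccr7 rose to 1.59. Ctla4 (-0.19) and Izumo1r (-0.40) turned to the lower side and were called there, Pdcd1 (-0.15) and Icos (-0.10) turned without a call, and Tnfrsf9 (0.10), Ifng (0.08), Il2 (0.27) and Nfatc1 (0.33) lost theirs. With other CD4 T cells matched on total UMIs, edgeR called 873 genes, and with the whole rule applied after thinning to 2000 UMIs it called 407, where Pdcd1 was at 0.039 and not called. Izumo1r (0.36), Nfatc1 (0.50), Dgka (-0.51), Entpd1 (-1.31), Havcr2 (-0.87), Tnfrsf9 (0.46), Tnfsf10 (0.86), Ccr7 (0.42) and St8sia6 (-1.13) also lost their calls after thinning. Marker lists of other cell types differed in both directions. The B-cell list of 6 genes summed to 1835 and 1258 CPM in rule cells and 1812 and 1428 CPM in other CD4 T cells, with 1 gene at 0 in the rule cells of the library labelled NOD.Cxcl16-/-. The macrophage list of 6 genes summed to 18.9 and 24.7 against 24.4 and 37.7 CPM, with no gene at 0. The natural killer cell list of 4 genes summed to 22.1 and 12.6 against 45.8 and 40.4 CPM, with 1 gene at 0 in the rule cells of each library. The dendritic cell list of 7 genes summed to 78.8 and 19.5 against 43.1 and 24.1 CPM, and the plasma cell list of 4 genes to 83.2 and 109 against 118 and 121 CPM. The islet hormone list of 6 genes was higher, at 235 and 498 against 112 and 266 CPM. Of these UMIs, 1 barcode held 37.0% and 52.7% in rule cells, and 24.4% and 9.74% in other CD4 T cells. With barcodes of 10 or more such UMIs left out, 1470 genes were called. The part of these cells in single results was not tested beyond that.

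Set against Foxp3 cells, the rule cells were low in most genes that accompany Foxp3. Ikzf2, which encodes Helios, was at 223 and 242 CPM in rule cells and at 1157 and 1241 CPM in Foxp3 cells, and Il2ra, the interleukin-2 receptor alpha chain, at 25.8 and 20.5 against 92.1 and 89.2 CPM. The cytokine gene Il10 was at 19.5 and 20.01 against 105 and 147 CPM. Cd40lg and Ifng were higher in rule cells. Cd40lg, the CD40 ligand, was at 153 and 125 against 18.7 and 36.8 CPM, and Ifng at 182 and 166 against 29.9 and 65.8 CPM. In each of these genes the populations did not overlap across the libraries.

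The edgeR test called 887 of 8853 genes (10% of those tested), 389 higher in rule cells (4.39%) and 498 lower (5.63%), and DESeq2 called 139 (1.57%), of which 136 were shared in the same direction. Of 15 genes shared with regulatory T cells, 13 were lower and 1 higher, 93.3% against 10% of all genes. The median log2 fold change was -1.46 against 0.0090 for all genes, and 9 of the 13 passed DESeq2. The lower ones included Ikzf2 (-2.29), Il2ra (-1.90), Tnfrsf18 (GITR, -1.63) and Izumo1r (-1.10), and the exception was Nrp1 (0.82). Of 10 helper cytokine genes, 5 were higher and 4 lower, 90% against 10% of all genes. Tnfrsf9 was lower than in Foxp3 cells (-1.69), although it had been higher than in other CD4 T cells. Among the largest decreases were the integrin gene Itgae (8.20 and 3.69 against 129 and 96.2 CPM, -4.20), Gzmb (-3.95), Neb (-3.39), Lamc1 (-3.09) and Ccr2 (-2.72). Increases included Spp1 (47.9 and 185 against 3.73 and 1.415 CPM, 5.92) and Pdzrn3 (79.4 and 91.6 against 4.98 and 2.12 CPM, 4.82). Both levels in Foxp3 cells were near the floor, with only 4 and 3 UMIs of Pdzrn3. Also higher were Nrgn (2.52), Cd40lg (2.28), Plagl1 (2.05), Ifng (1.85) and Tcf7, a factor of stem-like T cells (267 and 330 against 107 and 94.8 CPM, 1.67). Il2, the main T-cell growth factor, had 30 and 58 UMIs in rule cells and 0 and 5 in Foxp3 cells. The rule removed Foxp3 and the Foxp3 cells were chosen by it, so its absence is no finding. Genes that accompany Foxp3 were likely to be lower by that choice. Ikzf2 did not pass against other CD4 T cells, so its low level is not particular to rule cells. This comparison uses the same rule-cell sums as the preceding one.

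The population with the fewest called genes was the cells with Il21 or Cxcr5. Of its 308 and 257 cells, 191 and 184 met every other condition of the rule, including the cut on Tnfsf8, Nrn1 and Tnfsf11. Only a UMI of Il21 or Cxcr5 kept these out of the rule cells. The part of this shared selection in the few calls and in the levels of Pdzrn3 and Plagl1 was not tested. Pdzrn3 (79.4 and 91.6 against 81.4 and 126 CPM) and Plagl1 (55.5 and 83.2 against 91.1 and 104 CPM) did not pass the edgeR test there, with log2 fold changes of -0.26 and -0.49. Rule cells kept more of the exit genes: S1pr1 was at 232 and 234 against 86.3 and 129 CPM, Il7r at 236 and 283 against 110 and 161 CPM and Emb, a partner of lactate transporters, at 352 and 388 against 187 and 198 CPM. They had less Maf, the factor that drives Il21 and Il10 (368 and 231 against 547 and 436 CPM), less Il10 (19.5 and 20.01 against 56.7 and 44.9 CPM) and less Lag3 (126 and 132 against 211 and 197 CPM). The rule removed cells with Il21 or Cxcr5, and the compared cells were chosen by them. Genes that accompany Il21 or Cxcr5 were likely to be lower in rule cells by that choice.

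Here edgeR called 208 of 9337 genes (2.23% of those tested), 62 higher in rule cells (0.664%) and 146 lower (1.56%), all with the same direction in both libraries, and DESeq2 called 33, all shared. Of the 17 genes of naive and recirculating cells, 8 were higher and none lower (13 and 1 at an unadjusted p under 0.05), 47.1% against 2.23% of all genes. The median log2 fold change was 0.49 against 0.0033 for all genes. S1pr1 (1.13), Il7r (0.96), Satb1 (0.95) and Klf2 (0.70) passed both tests, as did Emb (0.95), Scml4 (1.59) and the phosphatase gene Dusp10 (1.01), and Maf on the lower side (-0.73). After thinning to 2000 UMIs, S1pr1 (0.81), Il7r (0.62), Klf2 (0.19), Emb (0.97), Scml4 (1.595) and Dusp10 (1.155) were no longer called and Satb1 turned to -0.12, with edgeR adjusted p between 0.071 and 0.93, while Maf (-1.35), Il10 (-2.40) and Lag3 (-1.07) stayed called. Havcr2 (-1.28), Il10 (-1.34), Lag3 (-0.65), Ctla4 (-0.26) and Cd200 (-0.31) were lower in edgeR only, and Ctla4 and Cd200 lost the call after thinning (-0.31 and -0.29). None of the 18 anergy-linked genes was called by edgeR or by DESeq2. At an unadjusted edgeR p under 0.05, 5 of them were higher and 3 lower, against 1156 of all 9337 genes. Genes known from antigen-presenting cells were among the 12 largest decreases, H2-DMb2 (-1.62), Napsa (-1.44), Cd86 (-1.32) and H2-Oa (-1.24), next to Grasp (-1.58), Pglyrp1 (-1.48), Pak1 (-1.46) and the decoy receptor gene Il1r2 (-1.29). The B-cell list summed to 3697 and 2320 CPM in Il21 or Cxcr5 cells against 1835 and 1258 CPM in rule cells, and the part of B-cell RNA in these calls was not tested beyond requiring no UMI of Cd79a, C1qa or Lyz2, where 294 genes were called. Without the library block 21 genes were called, and after thinning 19.

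Between the libraries, the rule cells differed most plainly in genes induced by interferon. Ifi27l2a was at 2822 CPM in WT NOD cells and at 1581 CPM in the library labelled NOD.Cxcl16-/-, Bst2 (tetherin) at 180 and 104 CPM and Isg15, a ubiquitin-like modifier, at 63.7 and 33.2 CPM. Ccl5 was lower as well, at 705 and 256 CPM, whereas Spp1 (47.9 and 185 CPM) and the chemokine gene Xcl1 (51.7 and 173 CPM), which attracts cross-presenting dendritic cells, were higher. Each genotype has 1 library, so none of these differences has a replicate check or a test, and the mice, the library and the genotype cannot be told apart.

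A gene was counted as different past 1.5-fold, on log2 CPM with 1 CPM added, with at least 30 UMIs over both libraries. Of 7975 genes, 794 (9.96%) passed, 339 higher in the library labelled NOD.Cxcl16-/- (4.25%) and 455 lower (5.71%), and 457 (5.73%) had a counting interval that left out equality. Of 10 interferon-induced genes, 9 were past the fold on the lower side and none on the higher, with a median log2 ratio of -0.85 against 0.0091 for all genes. They were Usp18 (-1.31), Rtp4 (-1.03), Ifit1 (-0.96), Isg15 (-0.92), Isg20 (-0.87), Ifi27l2a (-0.84, interval -0.90 to -0.77), Irf7 (-0.83), Bst2 (-0.78) and Slfn5 (-0.70). Zbp1 (-0.37) was not past the fold. In other CD4 T cells the same 10 genes had a median of -0.49, so the direction was not particular to rule cells. After thinning, 5 of the 10 were past the fold and the median was -0.66, and Usp18 (0.33) and Slfn5 (0.10) turned to the higher side.

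**Figure D5:**
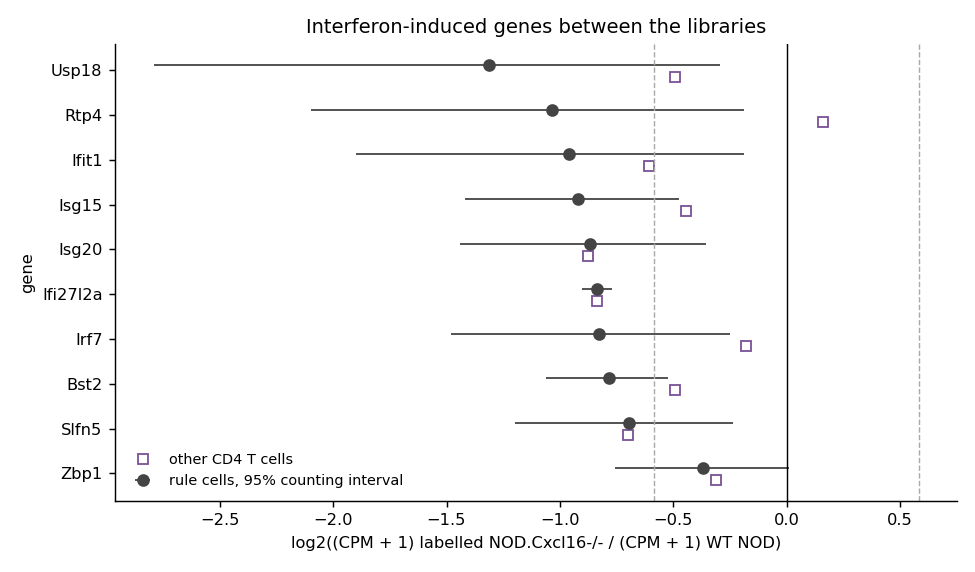
log2 of the CPM in the library labelled NOD.Cxcl16-/- divided by that in WT NOD cells (x axis, CPM with 1 CPM added) for 10 interferon-induced genes (rows), in rule cells (filled circles with 95% counting intervals) and in other CD4 T cells (open squares); dashed lines mark 1.5-fold. In rule cells 9 of the 10 genes lie beyond the lower dashed line, from -1.31 for Usp18 to -0.70 for Slfn5.

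The other large ratios often rested on few barcodes. Spp1 had a log2 ratio of 1.93 (76 UMIs in WT NOD and 352 in the other library), found in 15 and 29 rule cells, with 21.6% of the UMIs of the library labelled NOD.Cxcl16-/- in 1 barcode, and it was also higher there in other CD4 T cells (2.13). Xcl1 had 1.72 (82 and 328 UMIs), with 29.0% in 1 barcode, and 0.14 in other CD4 T cells. The small GTPase gene Rnd3 had 1.99 (14 and 72 UMIs) and the neuropeptide gene Nts 3.39 (7 and 106 UMIs, in 3 and 14 cells). The islet hormone genes Sst (3.12) and Gcg (-3.35), the chemokine gene Ccl1 (2.27) and Fscn1 (-3.71) each had between 82.4% and 94.5% of the UMIs of the higher library in 1 rule-cell barcode, and 5 and 9 rule cells held 10 or more islet hormone UMIs. AY761185 had 42 UMIs in WT NOD rule cells and 0 in the others, 16.8-fold lower with the 0 set to a floor of 3 counts. The counting interval of its log2 ratio had an upper end of -3.705. Ccl5 had a log2 ratio of -1.46, which was -0.65 with high-scoring doublets left out. Cxcr6, the receptor of the targeted chemokine, was at 160 and 110 CPM in rule cells (-0.54), short of 1.5-fold. Of the other TNF-family ligands, Lta (1.21) and Tnfsf4 (1.21) were past the fold on the higher side with intervals that left out equality. Plagl1 (0.58) and Pdzrn3 (0.20) were not past it.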

How the data were processed

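The deposited files hold counts, UMIs per gene and barcode for 2 libraries, in filtered matrices. Per the submitters' processing notes the authors used Cell Ranger 7.0.1 and build mm10; the annotation release and the handling of introns are not given in the sources used here. The members and the gene lists were chosen with earlier results of these data known. Barcodes with at least 500 genes and at most 10% mitochondrial UMIs were kept. High-scoring doublets, which include 16 and 7 rule cells, were left out only as an alternative; they were called from 2 simulated doublets per barcode at an expected 0.8% per 1000 barcodes.

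UMIs were summed per library and population, and populations were compared with edgeR 4.0.16 in R 4.3.3 (TMM scaling, filterByExpr, quasi-likelihood test, library as block, Benjamini-Hochberg threshold 0.05), with the genes of the rule left out of the calls, and with DESeq2 1.42.0 as an alternative. Populations of a library share its mice and its handling, which is why the library is the block; the replicates of a population are 2 libraries with different genotype labels. The 3 comparisons share the sums of the rule cells. Between libraries there was no test, with 1 library a genotype. Intervals were exact Poisson or Clopper-Pearson from scipy 1.17.1 (Python 3.11.15, numpy 2.4.6), and clusters came from 1500 genes, 20 components and 15 neighbours at resolution 0.8 (scikit-learn 1.9.0, leidenalg 0.10.2). Genes named were those of the lists, the 12 highest and 12 lowest log2 fold changes of each comparison among called genes of the same direction in both libraries at 50 CPM or more, and the 10 highest and 10 lowest ratios between libraries with at least 30 UMIs. The rule genes, immunoglobulin and T-cell receptor segments, mitochondrial and ribosomal protein genes, haemoglobins, Xist and genes with provisional names were not named. A few genes of these lists and sets are not reported here, and the counts and medians of the lists leave them out. Alternatives were other scaling, filters, thresholds and matching, thinning to 2000 UMIs, and leaving out doublets or barcodes with naive-cell, islet or other-lineage transcripts.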

Additional observations from a re-analysis of the deposited data

Results flagged for a closer look

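In 6 of the genes named between the libraries, rule cells and other CD4 T cells differed in opposite directions, each with a counting interval that left out equality, as log2 of the CPM in the library labelled NOD.Cxcl16-/- divided by that in WT NOD cells. The differences between the populations were not tested. Ccl5 had -1.46 in rule cells and 0.139 in other CD4 T cells, and Cxcr6, the receptor of CXCL16, had -0.537 and 0.372. The other 4 genes were Sst (3.12 and -1.57), Ccl1 (2.27 and -2.37), Usp28 (1.82 and -0.643) and Ifitm1 (-2.64 and 0.396). For Sst, Ccl1 and Ifitm1, 1 barcode held 93.3%, 94.5% and 81.9% of the UMIs in the rule cells of the library where each was higher. In rule cells the direction turned for Sst without doublets (-0.81), after thinning (-3.05) and from 3 UMIs (-0.80), and for Ccl1 (-5.08) and Usp28 (-0.71) after thinning.

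T cells without any Cd4, Cd8a or Cd8b1 UMI, which no comparison used, also held the transcripts. At least 2 UMIs of Tnfsf8, Nrn1 and Tnfsf11 were found in 8.87% (7.79 to 10.1) of 2524 such cells in the WT NOD library and in 16.4% (14.7 to 18.3) of 1626 in the library labelled NOD.Cxcl16-/-, at median depths of 2811.5 and 3801 UMIs. The B-cell shares were 0.134% and 0.220%.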

How the results depend on the processing

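Against other CD4 T cells, 1465 calls became 214 with DESeq2, 407 after thinning, 873 with other CD4 T cells matched on total UMIs and 858 among barcodes without a naive-cell UMI. Against Foxp3 cells, 887 became 139 with DESeq2 and 272 after thinning. Against Il21 or Cxcr5 cells, 208 became 33 with DESeq2, 449 without a low-count filter, 19 after thinning, 314 with at most 5% mitochondrial UMIs and 471 without barcodes of 10 or more islet hormone UMIs. Without the library as the block, the counts were 554, 458 and 21. Between libraries, 794 genes past 1.5-fold became 1728 with at least 10 UMIs and 463 after thinning. The shares of rule cells (WT NOD, then the library labelled NOD.Cxcl16-/-) were 19.5% and 22.6% after thinning, 42.8% and 48.4% from 1 UMI, 20.4% and 26.0% from 3, 15.3% and 18.4% without Tnfsf8, 21.4% and 26.1% without Tnfsf11, and 36.1% and 42.8% without naive-cell UMIs. Direction turned for Izumo1r (-0.40), Pdcd1 (-0.15), Ctla4 (-0.19), Icos (-0.10) and Jun (0.083) without naive-cell UMIs, for Ltb (0.025) after thinning and Maf (0.022) with matching, and against Il21 or Cxcr5 cells for Satb1 (-0.12) after thinning. Between libraries it turned for Sst without doublets (-0.81), after thinning (-3.05) and from 3 UMIs (-0.80), for Ccl1 (-5.08), Usp28 (-0.71), Usp18 (0.33) and Slfn5 (0.10) after thinning, and for Gcg (0.32) without islet-hormone barcodes. After thinning, 13 of 32 genes named between libraries stayed within their counting interval, 14 moved outside it and 5 turned. The causes were not tested. Leaving out a library leaves 1 library and no test, so only the difference in the remaining library can be given. Genes near 30 UMIs between libraries, and Egr2, Egr3 and Rnf128, are limited by depth.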
